A study of Mus musculus with 9 samples.

Results

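The genes described here are the 55 of the 23337 gene symbols counted that begin with Eif1 to Eif6, apart from the eIF4E-binding proteins, in mouse fibroblasts that expressed LAP, LIP or neither. The rule matched symbols and used no measured value, but it also named Eif4e3 beside its paralogs. Eif4e3 was chosen with earlier results of these data known, so its p-values here are no independent support. Of the 55, 54 had at least 1 count, 53 had more than 3 counts in some library and in 51 the mean reached 50 counts over the 9 libraries. The symbols cover more than the initiation factors in the narrow sense. All of them are called initiation factors or initiation factor genes below, for short. Eif2c1 to Eif2c4 are older symbols of the Argonaute genes Ago1 to Ago4, which act in microRNA silencing, Eif2ak1 to Eif2ak4 encode the kinases that phosphorylate eIF2α, and Eif4enif1 encodes the eIF4E transporter.

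RNA came from immortalised mouse embryonic fibroblasts (MEFs) of a C57BL/6 x 129 background. All groups, the controls included, are labelled as Cebpb knockout. The cells had been stably transfected with a pcDNA3 or pSV2Zeo plasmid that was empty (EV), or carried rat C/EBPβ-LAP (LAP) or rat C/EBPβ-LIP (LIP), and were kept under Zeocin selection, with 3 libraries in each group. LAP is the long isoform of the transcription factor C/EBPβ and LIP is the short one, which lacks the activation domain, and both are normally translated from the same mRNA. The comparisons ask which mRNAs differ between cells labelled as expressing either isoform and the control cells. The sources used here do not say whether the libraries of a group came from separate cultures or clones, so p-values measure only the spread between these libraries.

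Initiation factors bring the ribosome to the start codon of an mRNA. eIF4E binds the cap, eIF4G bridges it to the helicase eIF4A and to eIF3, and eIF2 delivers the initiator tRNA to the small subunit with the help of eIF1, eIF1A and eIF3. eIF2B recharges eIF2 with GTP, and the eIF2α kinases block that step under stress. eIF5 and eIF5B then complete the joining of the subunits.

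Counts on genes were 24839139 to 33522082 per library, of which the 55 genes took 1.03% to 1.13%. Levels are given as CPM, counts scaled by TMM to a common library size, a normalization that sets most genes level. Mouse Cebpb was counted at 25.2 to 30.5 CPM in EV, 25.5 to 33.2 CPM in LAP and 28.3 to 33.3 CPM in LIP. These reads show neither the knockout nor the transgenes. The rat sequences were not counted as genes of their own, and the part of Cebpb that the knockout removes is not given in the sources used here, so the labels could not be checked by this gene and are taken as given. All 10 fibroblast markers checked were detected, at a summed 35259 to 39728 CPM in EV, 29442 to 43170 CPM in LAP and 17012 to 30253 CPM in LIP. Pdgfra and Pdgfrb were low in every library, at most 2.93 and 1.73 CPM. In LIP, Pdgfra stood at 0.524 to 1.67 CPM, and Pdgfrb had 3 counts in LIP 3. Col1a1, Col1a2, Pdgfra and Pdgfrb lay lower in LIP than in EV without overlap. Col1a2 was at 2096 to 4386 CPM in LIP and 7397 to 8120 CPM in EV. The other fibroblast markers, among them Vim and S100a4, overlapped between LIP and EV. Endothelial markers summed to at most 3.64 CPM and leukocyte markers to at most 8.22 CPM, with Pecam1 and Ptprc at 0, and epithelial markers to 83.0 to 247 CPM. Of the epithelial markers, Krt14 alone stood at 82.1 to 244 CPM, while Epcam reached at most 0.581 CPM and Krt5 0.154 CPM. The part of these markers in the results was not tested. Pearson's r between replicates, across 11535 genes, which are not independent replicates, was 0.987 to 0.994 in EV, 0.975 to 0.984 in LAP and 0.965 to 0.976 in LIP.

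Without the replicate number as a block, Eif4e3 was the one initiation factor gene whose mRNA passed the test, and it was higher in LIP. With that block, Eif2s3y passed as well in LIP against LAP. Eif4e3 encodes a rare relative of eIF4E that binds the cap in a different way. Its counts were 27, 19 and 18 in EV, 39, 33 and 15 in LAP and 66, 83 and 171 in LIP. In CPM these were 0.840, 0.701 and 0.527 in EV, 1.20, 1.19 and 0.555 in LAP, and 2.69, 2.72 and 5.52 in LIP. Every LIP library lay above every EV and every LAP library, with LIP 3 the highest, while the ranges of EV and LAP overlapped. In such bulk RNA, more Eif4e3 mRNA per cell and more cells that express it cannot be told apart.

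Against EV, Eif4e3 rose in LIP by 2.40 on the log2 scale, or 5.28-fold, with an SE of 0.373 and an edgeR adjusted p of 0.0173. An interval of 2 SE to each side ran from 1.66 to 3.15. Against LAP it rose by 1.91 with an SE of 0.400 and an edgeR adjusted p of 0.0265, and the interval ran from 1.11 to 2.71. LAP against EV gave 0.51 with an SE of 0.362 and an edgeR adjusted p of 0.918, with an interval of -0.22 to 1.23. LIP against EV and LAP against EV share the EV libraries. The two-sided exact permutation test of the CPM gave p = 0.1 for LIP against EV and for LIP against LAP, the smallest that 3 libraries against 3 allow, and p = 0.3 for LAP against EV.

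The call of Eif4e3 depended on which genes and libraries entered the test. Restricting the test to genes that passed edgeR's filterByExpr gave an adjusted p of 0.114 against EV and 0.175 against LAP, at nearly the same fold. Requiring at least 10 counts in every library gave 0.156 and 0.225. These filters removed nearly every call in the table. Calls over all genes went from 72 to 4 in LIP against EV and from 190 to 2 in LIP against LAP with filterByExpr, and to 0 in both with at least 10 counts. Leaving out EV 2 gave an adjusted p of 0.0960 for LIP against EV. Leaving out LAP 2 gave 0.138 and leaving out LIP 1 gave 0.0520 for LIP against LAP. Without LIP 3, the highest library, the log2 fold change was 1.98 against EV with an adjusted p of 0.00694.

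**Figure D1:**
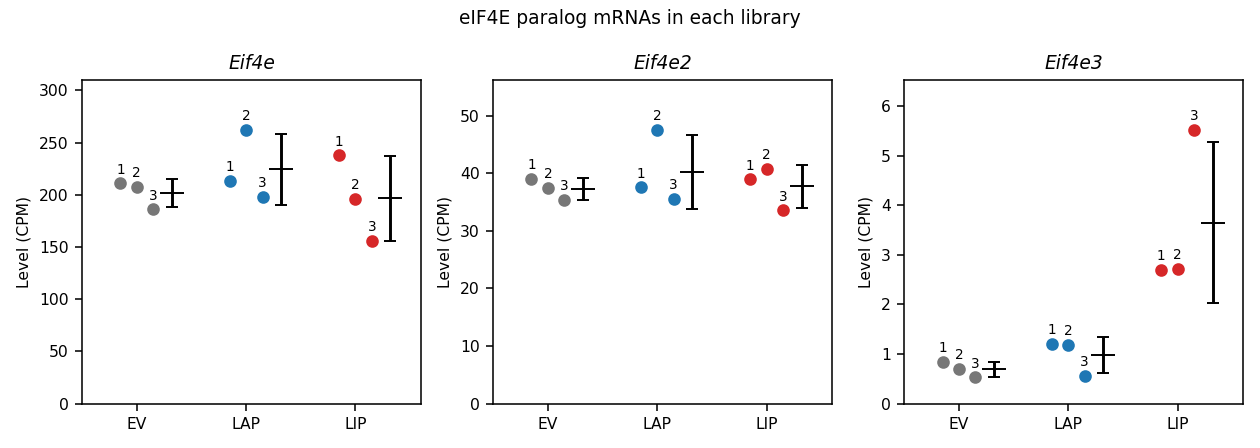
Levels of Eif4e, Eif4e2 and Eif4e3 mRNA in CPM (y axis, from 0, with a scale of its own in each panel) in the EV, LAP and LIP groups (x axis). Points are libraries with their replicate number, and bars beside them are the mean ± SD of 3 libraries. For Eif4e3 the 3 LIP libraries, at 2.69 to 5.52 CPM, lie above all EV and LAP libraries, while for Eif4e and Eif4e2 the groups overlap.

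Eif4e, the main cap-binding factor, showed no such pattern. Its level was 211, 208 and 186 CPM in EV, 213, 262 and 198 CPM in LAP and 238, 196 and 156 CPM in LIP. The LIP libraries spanned the whole EV range. The log2 fold change of LIP against EV was -0.04 with an SE of 0.178 and an edgeR adjusted p of 0.970. Eif4e2 encodes 4EHP, a cap-binding protein that represses translation. It was counted at 39.1, 37.5 and 35.4 CPM in EV, 37.6, 47.6 and 35.6 CPM in LAP and 39.0, 40.8 and 33.6 CPM in LIP, again with overlapping ranges. LIP against EV gave 0.02 on the log2 scale with an SE of 0.156 and an edgeR adjusted p of 0.986.

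Per kilobase of transcript, Eif4e3 remained the least abundant of the 3 paralogs in every library. The mean level per kilobase in EV was 40.4 CPM for Eif4e, 10.7 CPM for Eif4e2 and 0.274 CPM for Eif4e3. In LIP it was 39.4, 10.9 and 1.45 CPM in the same order. Eif4e3 thus made up 0.530% ± 0.0899 of the summed level per kilobase of the 3 paralogs in EV, 0.677% ± 0.224 in LAP and 2.98% ± 1.83 in LIP (SD, n = 3 each). In LIP 3, the library with the lowest Eif4e, this share was 5.09%. Eif4e3 has 1 curated RefSeq transcript, Eif4e has 2 and Eif4e2 has 4. Levels per kilobase differed with that number among the initiation factors, so the size of these shares is uncertain.

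Eif4e3 lies on the minus strand of chromosome 6 at 99625135 to 99666771 (GRCm38, GENCODE M21 annotation) and has 1 curated RefSeq transcript, with 2515 bases in the model used here. Of the 50-base windows of this transcript, 12.3% also occur in transcripts of other genes, among them Gm20696, whose annotation overlaps the locus, so a part of its reads may be assigned uncertainly. Eif4e lies on chromosome 3 at 138526179 to 138559696 and Eif4e2 on chromosome 1 at 87213914 to 87240488, both on the plus strand. The remaining symbols of this group were low. Eif4e1b, an oocyte paralog, had 1 count in EV 3 and 1 in LIP 2 and none elsewhere, which is at or under the floor of 3 counts used here, so no fold is given. Eif4enif1 had 8 to 28 counts. It was counted at 0.249, 0.554 and 0.586 CPM in EV, 0.586, 0.539 and 1.04 CPM in LAP and 0.571, 0.622 and 0.581 CPM in LIP, and LAP against EV gave 0.62 with an SE of 0.419 and an edgeR adjusted p of 0.918.

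C/EBP proteins bind palindromes with a core such as TTGCNNAA. The 8-base word was searched on both strands, which adds TTNNGCAA, in the RefSeq promoter windows of GRCm38.p6, each 300 bases from 250 before to 50 after a transcription start. Of the 55 symbols, 45 had a window, and Eif4e3 was not among them. The word occurred in 4 of them, which is 8.89% of the genes, against 12.2% of the 27025 genes with a window. The 4 were Eif4e, Eif2d, Eif4g1 and Eif2b2, and in Eif2b2 it lay after the start. The stretches around the upstream matches are shown because they are the only places where these windows carry the word before the start, with the match in capitals and the plus strand of the genome as written.
Eif4e, chr3:138526155-138526202: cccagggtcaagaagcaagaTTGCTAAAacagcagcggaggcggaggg
Eif4g1, chr16:20672550-20672597: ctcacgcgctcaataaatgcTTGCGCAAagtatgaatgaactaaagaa
Eif2d, chr1:131153055-131153102: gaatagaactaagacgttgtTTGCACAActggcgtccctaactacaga
The matches began 16 bases before the start in Eif4e, 157 bases before a start inside the annotated gene in Eif4g1 and 132 bases before the start in Eif2d. A match of letters is a description and says nothing about binding. None of the 3 genes passed the test in any comparison.

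Across the whole set, Eif4e3 was the only gene called without a replicate block. LIP against EV called 1 of 54 genes tested, Eif4e3, where 0.396% of all genes were called. LAP against EV called 0 of 54, where 0.0606% of all genes were called, and DESeq2 also called 0. LIP against LAP called 1 of 54, again Eif4e3, where 1.05% of all genes were called. In each of the 3 comparisons 51 of the 54 genes, or 94.4%, stayed within 1.5-fold, where 67.7%, 76.5% and 68.1% of all genes did in LIP against EV, LAP against EV and LIP against LAP. Among genes whose mean reached 50 counts, these were 49 of 51, 50 of 50 and 49 of 51 initiation factors, beside 88.8%, 97.2% and 88.9% of all genes. The median log2 fold change of the 54 was 0.05 in LIP against EV, 0.06 in LAP against EV and -0.07 in LIP against LAP, and that of all genes tested was 0.04, 0.02 and 0.02. In LIP against EV and LIP against LAP the sign of the median rested on single libraries. LIP against EV gave -0.0088 without LIP 1, and LIP against LAP gave 0.0185 without LAP 3 and 0.0078 without LIP 2.

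At an unadjusted p under 0.05, 1 initiation factor gene was higher and 1 lower in LIP against EV, where 4.23% of all genes were higher and 6.75% lower. In LAP against EV 2 were higher and 1 was lower, where 1.93% and 1.34% of all genes were. The count of 2 higher genes became 8 without LAP 3, 7 without LAP 1 and 0 without LAP 2. It became 1 without EV 1 or EV 3, 0 without EV 2 and 5 with the replicate number as a block. The share of all genes at this threshold was not taken in those fits, so these counts show only that the number was unstable. Adjusted calls over all genes moved too, from 11 to 62 without LAP 3, 10 without LAP 1 and 7 without LAP 2. In LIP against LAP 1 was higher and 0 were lower, where 3.30% and 5.98% of all genes were. The groups did not overlap in 5 genes higher and 1 gene lower in LIP against EV, where 6.80% and 8.83% of all genes showed this. They did not overlap in 4 genes higher and 1 lower in LAP against EV, where 3.81% and 3.76% of all genes showed this. The 1 lower was again Eif2c4. In LIP against LAP this held for 1 gene higher and 0 lower, where 6.23% and 6.58% of all genes showed it.

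The spread between replicates differed by group. The median coefficient of variation of the 53 genes with more than 3 counts in some library was 7.60% in EV, 15.99% in LAP and 17.2% in LIP. The highest of the 9 libraries lay less than 2-fold above the lowest in 38 of these 53 genes. The ratio was largest for Eif4e3 at 10.5, followed by Eif2s3y at 7.73, Eif2c4 at 6.31, Eif4enif1 at 4.16 and Eif4a2 at 3.07.

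**Figure D2:**
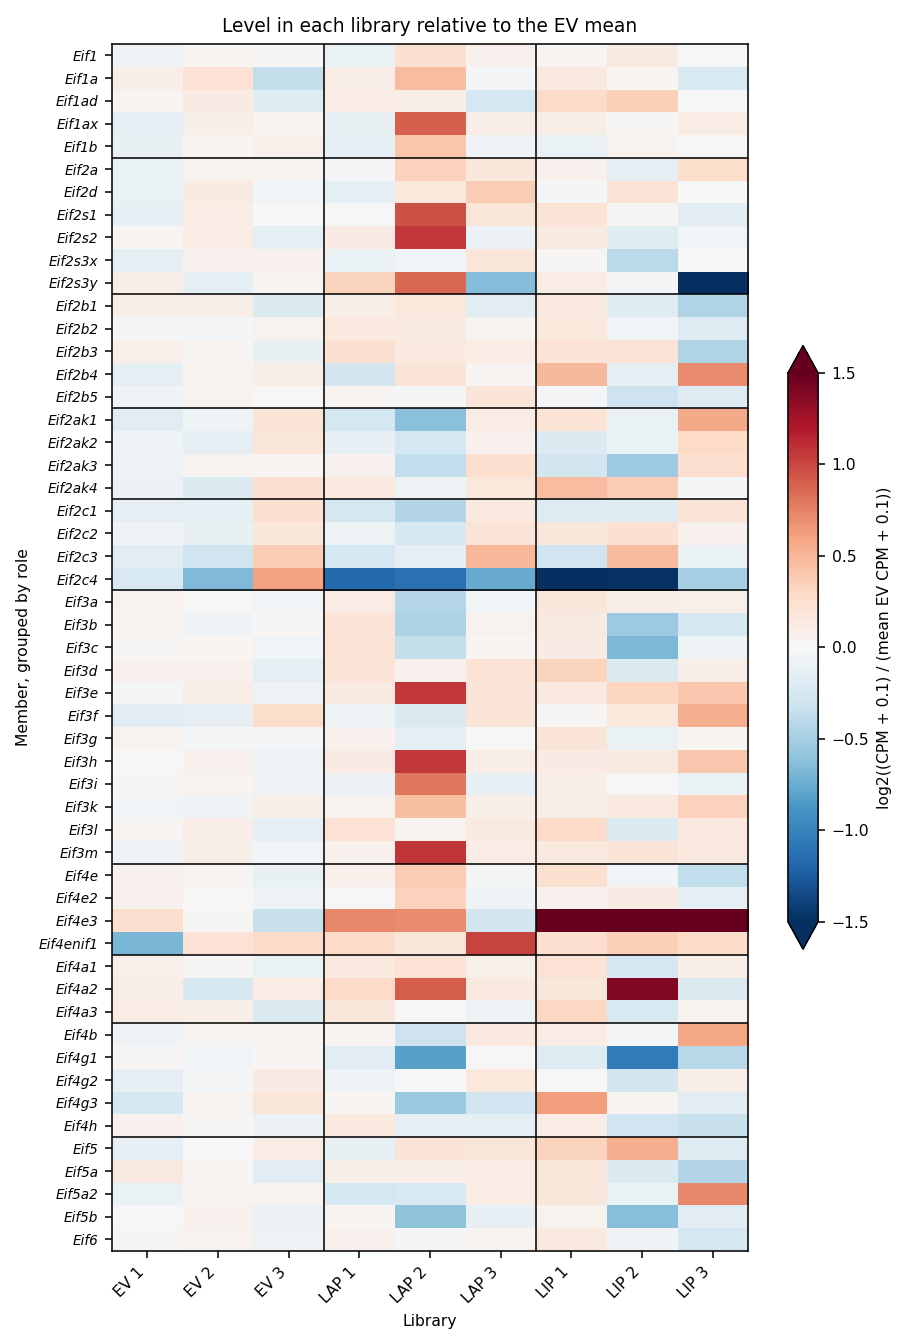
Level of each of the 53 genes with more than 3 counts in some library (rows, grouped by role and separated by lines) in each of the 9 libraries (columns), as log2 of the CPM relative to the EV mean after adding 0.1 CPM to both. Red is higher and blue lower, with the colour saturated at 1.5. Eif4e3 is red in all 3 LIP libraries, and the block of strong colour in LAP 2 holds genes of eIF2, eIF3 and eIF1A.

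**Figure D3:**
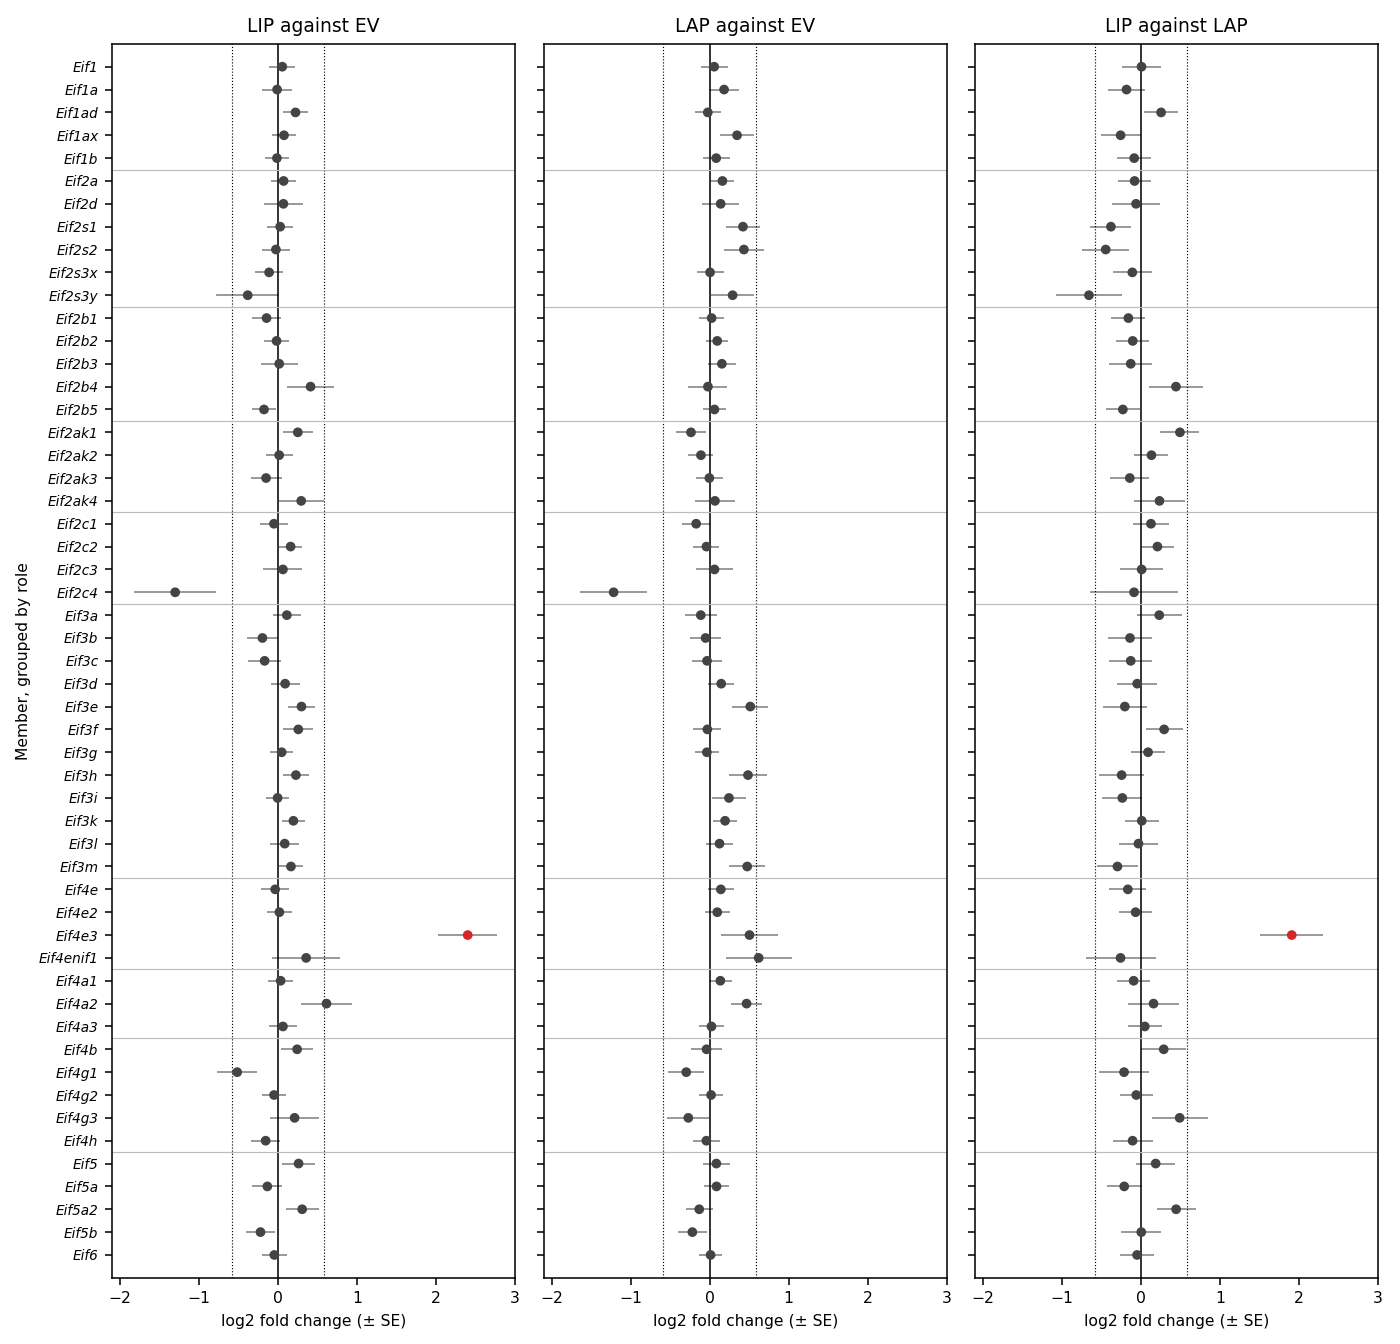
log2 fold change (x axis) with its SE (horizontal bars) of the same 53 genes (y axis, grouped by role) in LIP against EV, LAP against EV and LIP against LAP, by edgeR. Red points have an adjusted p under 0.05 and dotted lines mark 1.5-fold. Only Eif4e3 is red, at 2.40 in the left panel and 1.91 in the right panel.

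Of the 3 helicase genes of eIF4A, which unwinds the mRNA leader, Eif4a2 varied most. It was counted at 137, 109 and 139 CPM in EV, 156, 241 and 142 CPM in LAP and 144, 336 and 110.2 CPM in LIP. LIP 2 was far above the other LIP libraries, and LIP 3 lay within the EV range. LIP against EV gave 0.61 on the log2 scale with an SE of 0.322 and an edgeR adjusted p of 0.532, and without LIP 2 it gave -0.02. LAP against EV gave 0.47 with an SE of 0.197 and an edgeR adjusted p of 0.918, and 0.21 without LAP 2. The paralog Eif4a1 lay between 62.5 and 86.5 CPM in all libraries. Eif4a2 was 77.9% of the summed level per kilobase of Eif4a1 and Eif4a2 in LIP 2, against 47.6% to 64.6% in the other 8 libraries. Of the 50-base windows, 65.3% of those of Eif4a1 and 12.7% of those of Eif4a2 also occur in other transcripts, so the level of Eif4a1 and with it these shares are uncertain.

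The scaffold gene Eif4g1 was the one initiation factor whose LIP libraries all lay below the EV libraries. This was 1 of 54 genes tested, where 8.83% of all genes lay lower without overlap. Its level was 9.02, 8.67 and 9.14 CPM in EV, 7.95, 5.03 and 8.99 CPM in LAP and 7.84, 4.26 and 6.69 CPM in LIP. LIP against EV gave -0.52 with an SE of 0.250 and an edgeR adjusted p of 0.486, so the difference did not pass the test, and LAP against EV gave -0.30. The related Eif4g3 was counted at 1.74 to 2.40 CPM in EV and 1.87 to 3.31 CPM in LIP, and Eif4g2, a scaffold without an eIF4E site, at 63.7 to 75.2 and 57.3 to 73.5 CPM. Eif4b encodes a cofactor of eIF4A and had the highest counts of this group, with 832, 883 and 882 CPM in EV, 892, 697 and 955 CPM in LAP and 932, 845 and 1295 CPM in LIP, with overlapping ranges.

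eIF3, the largest initiation complex, was read from 13 symbols, of which 12 had counts. None passed the test in any comparison. The median log2 fold change of the 12 was 0.10 in LIP against EV, 0.14 in LAP against EV and -0.09 in LIP against LAP. Leaving out 1 library moved these medians. LIP against EV gave 0.03 without LIP 1, 0.06 without EV 3 and 0.18 without LIP 2, and LIP against LAP gave 0.08 without LAP 2, 0.04 without LIP 2, -0.0047 without LAP 1, -0.02 without LAP 3 and -0.17 without LIP 1. Eif3j, a loosely bound subunit, had 0 counts in all 9 libraries, which with a floor of 3 counts allows up to 0.0879 to 0.122 CPM, depending on the library, and 54.8% of its 50-base windows also occur in other transcripts, mainly the near copy Eif3j2. Its count is therefore uncertain.

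The subunits fell into sets by how they stood in library LAP 2. Eif3a, the scaffold of the complex and its most highly counted gene, stood at 1323, 1277 and 1240.0 CPM in EV, 1379, 951 and 1245 CPM in LAP and 1441, 1359.8 and 1349 CPM in LIP. Eif3e stood at 372, 407 and 360.0 CPM in EV, 418, 795 and 433 CPM in LAP and 421, 476 and 504 CPM in LIP. Thus LAP 2 was the lowest of the 9 libraries for Eif3a and the highest for Eif3e. Eif3h, Eif3i and Eif3m followed Eif3e, with 894, 327 and 421 CPM in LAP 2 against at most 565, 201 and 229 CPM in the other 8 libraries. Eif3b and Eif3c were low in LAP 2, at 391 and 374 CPM against 625 and 553 CPM in LAP 1, and they were low in LIP 2 as well, at 371 and 300.4 CPM.

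The largest differences of LAP against EV in eIF3 rested on that library. Eif3e gave 0.52 with an SE of 0.229 and an edgeR adjusted p of 0.918, Eif3h 0.49 and Eif3m 0.48. Without LAP 2 the same 3 genes gave 0.16, 0.11 and 0.08. In LIP against EV, Eif3e gave 0.30 with an SE of 0.166 and an edgeR adjusted p of 0.561. Eif3a, Eif3e, Eif3h and Eif3m were the eIF3 genes whose LIP libraries all lay above the EV libraries. These were 4 of 12, where 6.80% of all genes lay higher without overlap, and none of the 4 passed the test. Eif3f gave the smallest p of LIP against LAP, at 197, 216 and 283 CPM in LIP and 186, 167 and 222 CPM in LAP, with overlapping ranges and 0.29 on the log2 scale (edgeR adjusted p = 0.763).

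LAP 2 departed from the other LAP libraries in other initiation factor genes too. Of 51 genes whose mean reached 50 counts, 11 lay at least 1.5-fold from the mean of LAP 1 and LAP 3, 9 of them higher and 2 lower, which is 21.6% against 19.9% of all genes. Its departures went with transcript length. The 26 genes at or under the median length of 2708 bases had a median departure of 0.22 on the log2 scale, and the 25 longer ones one of -0.24. Spearman's rho between departure and length was -0.550 over the 51 genes and -0.477 over 10157 genes. Eif3g, with 1101 bases, went the other way, at -0.18. Other libraries also showed a trend with length over the 51 genes, with rho of 0.536 in LAP 3, 0.392 in EV 3 and -0.365 in EV 1. The departure of LAP 3 is measured in part from LAP 2. In LAP 2 rho with the share of G and C bases was -0.306. These values are descriptions across genes of single libraries, and the parts of transcript length and base content in the result were not tested. LIP 2 and LIP 3 had 6 and 7 of the 51 genes at least 1.5-fold from the mean of the other LIP libraries, against 20.3% and 20.9% of all genes.

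**Figure D4:**
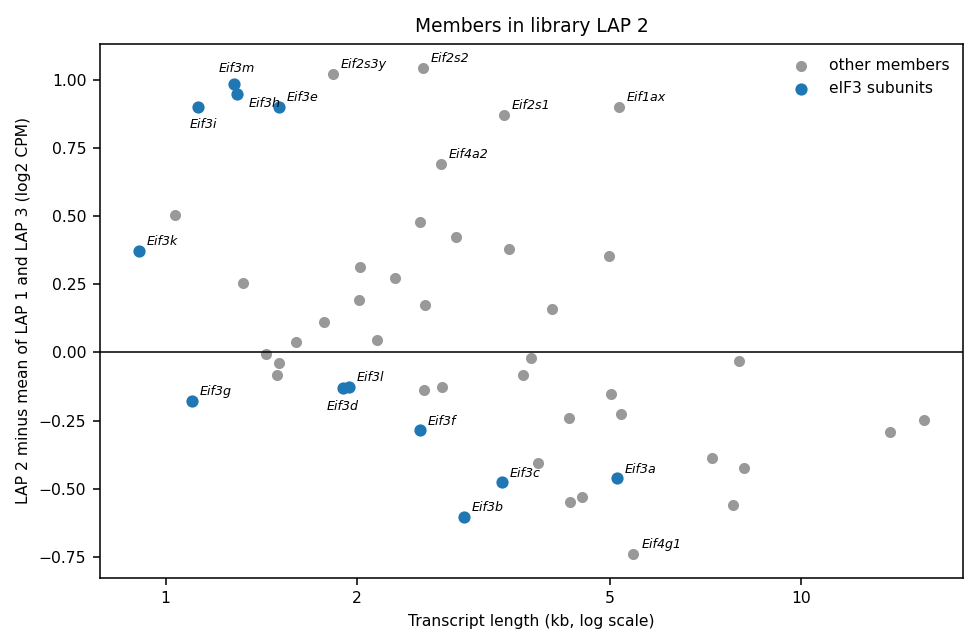
Departure of library LAP 2 from the mean of LAP 1 and LAP 3 in log2 CPM (y axis) against transcript length in kilobases (x axis, log scale) for the 51 genes whose mean reached 50 counts, with eIF3 subunits in blue and the others in grey. Eif3m, Eif3h, Eif3e and Eif3i lie near 0.9 to 1 at the short end, and Eif3a, Eif3b and Eif3c lie below 0, as does the short Eif3g.

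eIF2 carries the initiator tRNA, and its α and β subunits are encoded by Eif2s1 and Eif2s2. Eif2s1 was counted at 205, 242 and 224 CPM in EV, 222, 433 and 253 CPM in LAP and 258, 227 and 199 CPM in LIP. Eif2s2, the most highly counted gene of this group, stood at 486, 514 and 429 CPM in EV, 517, 990.3 and 447 CPM in LAP and 521, 420.3 and 463 CPM in LIP. In both, LAP 2 was far above the rest and the remaining libraries overlapped. Eif2s1 gave 0.42 in LAP against EV with an SE of 0.219 and an edgeR adjusted p of 0.918, and 0.09 without LAP 2. The group of 6 genes holds Eif2a and Eif2d, other tRNA delivery factors, beside the eIF2 subunit genes. All 6 were above 0 in LAP against EV, with a median of 0.23, and below 0 in LIP against LAP, with a median of -0.25. Of these, 0 passed the test by edgeR without a replicate block or by DESeq2 in either. Without LAP 2 these medians were 0.06, with 5 of 6 genes above 0, and -0.07. Without LAP 3 the LAP against EV median was 0.34 with 4 of 6 above 0, and without LAP 1 the LIP against LAP median was -0.37. Without LAP 3, and again without LIP 2, there were 2 of 6 genes above 0 in LIP against LAP.

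The γ subunit of eIF2 has an X-linked gene, Eif2s3x, and a Y-linked copy, Eif2s3y. Eif2s3x lay between 304 and 455 CPM in all libraries. Eif2s3y was counted at 21.3, 17.8 and 20.3 CPM in EV, 24.9, 36.0 and 12.5 CPM in LAP and 21.4, 19.6 and 4.65 CPM in LIP. LIP 3 was the lowest library and LAP 2 the highest, and the groups overlapped. As a share of the summed level per kilobase of the pair, Eif2s3y was 8.96% ± 1.33 in EV, 10.8% ± 5.20 in LAP and 7.67% ± 4.81 in LIP (SD, n = 3 each). LIP against LAP gave -0.66 with an SE of 0.412 and an edgeR adjusted p of 0.711. With the replicate number as a block it gave -0.81 with an adjusted p of 0.00394, and Eif2s3y and Eif4e3 were then the 2 initiation factor genes called, where 6.51% of all genes were called. Some 36.2% of the 50-base windows of Eif2s3x also occur in other transcripts, and none of those of Eif2s3y do.

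The other Y-linked genes did not share the low value of LIP 3. Ddx3y, a helicase that also acts in initiation, was at 149, 168 and 163 CPM in EV, 145, 165 and 159 CPM in LAP and 241, 253 and 417 CPM in LIP. Kdm5d, a histone demethylase, stood at 33.5 to 39.4 CPM in EV, 30.3 to 35.0 CPM in LAP and 58.4 to 141 CPM in LIP. It rose by 1.43 in LIP against EV with an SE of 0.256 and an edgeR adjusted p of 0.0397. Both were highest in LIP 3, the library with the lowest Eif2s3y.

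**Figure D5:**
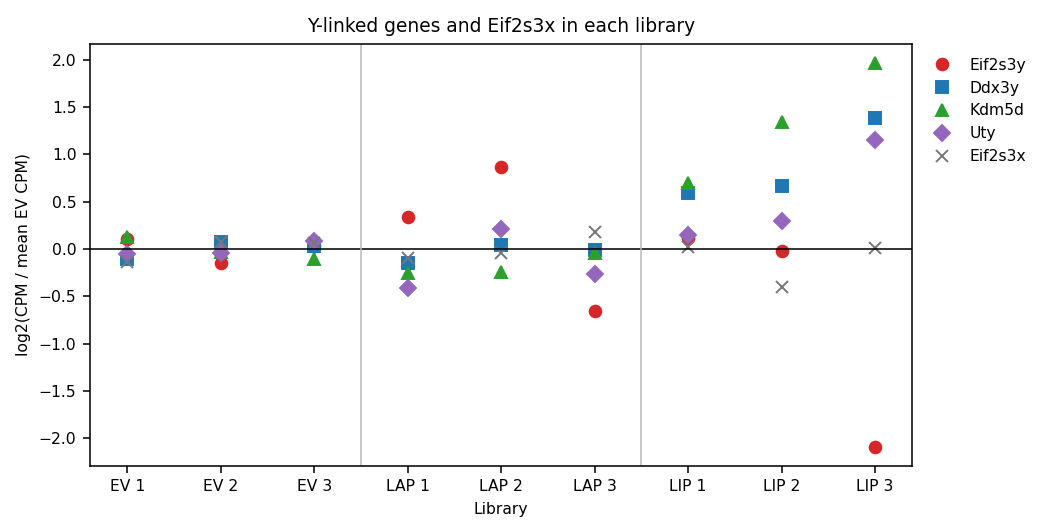
log2 of the CPM relative to the EV mean (y axis) for 4 Y-linked genes and the X-linked Eif2s3x in each of the 9 libraries (x axis). Eif2s3y falls to 4.65 CPM in LIP 3, where Ddx3y, Kdm5d and Uty have their highest points, and Eif2s3x stays near 0.

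eIF1 and eIF1A keep the ribosome scanning until the start codon is found. Eif1 had the highest level per kilobase of all 55 genes, with a mean of 419 CPM, and lay between 502 and 632 CPM per library. Eif1ax, the X-linked eIF1A gene, was at 156, 179 and 172 CPM in EV, 156, 314 and 181 CPM in LAP and 179.9, 171 and 183 CPM in LIP. Here too LAP 2 stood alone, and LAP against EV gave 0.35 with an SE of 0.220 and an edgeR adjusted p of 0.918, or -0.0011 without LAP 2. Eif1ad, a related gene, gave 0.22 in LIP against EV with an edgeR adjusted p of 0.674. None of the 5 genes of this group left the 1.5-fold limits in any comparison.

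None of the 5 eIF2B subunit genes or the 4 eIF2α kinase genes passed the test. Eif2b5, the catalytic subunit of the exchange factor, was at 148, 159 and 154 CPM in EV, 158, 151 and 175 CPM in LAP and 150.2, 124 and 134 CPM in LIP. Eif2b3 was the gene of this group without overlap, at 8.14 to 9.33 CPM in EV and 9.54 to 10.4 CPM in LAP. In LAP against EV 3.81% of all genes lay higher without overlap. Eif2b3 gave 0.16 there on the log2 scale with an edgeR adjusted p of 0.936. Eif2b4 gave 0.41 in LIP against EV with an SE of 0.299 and an edgeR adjusted p of 0.674. Eif2ak1, the haem-regulated kinase HRI, was at 119, 128 and 153 CPM in EV, 111, 86.4 and 144 CPM in LAP and 154, 124 and 197 CPM in LIP. LIP against LAP gave 0.49 with an SE of 0.247 and an edgeR adjusted p of 0.571, and the ranges overlapped. Each LIP library was higher than the LAP library of the same number, and with that number as a block the value was 0.50 with an adjusted p of 0.0651, which did not pass either. Eif2ak3, the endoplasmic reticulum kinase PERK, lay between 37.4 and 65.4 CPM, the interferon-induced Eif2ak2 between 54.5 and 80.7 CPM, and Eif2ak4, the amino acid sensor GCN2, between 1.77 and 2.86 CPM.

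Of the 4 Argonaute genes, Eif2c4 had lower mean levels in LAP and in LIP than in EV without passing the test. It had 22, 13 and 44 counts in EV, 10, 9 and 12 in LAP and 5, 7 and 17 in LIP. In CPM this was 0.684, 0.480 and 1.29 in EV, 0.308, 0.323 and 0.444 in LAP and 0.204, 0.229 and 0.549 in LIP. All LAP libraries lay below the EV libraries, as held for 3.76% of all genes, and LIP 3 lay above EV 2. LAP against EV gave -1.21 with an SE of 0.426 and an edgeR adjusted p of 0.918, and LIP against EV gave -1.30 with an SE of 0.515 and an edgeR adjusted p of 0.375. Both share the EV libraries. Eif2c2, which encodes the slicing Argonaute AGO2, was at 92.1 to 112 CPM in EV, 84.7 to 114 CPM in LAP and 105 to 117 CPM in LIP, and LIP against LAP gave 0.21 with an edgeR adjusted p of 0.763.

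Another group holds the genes of eIF5, eIF5A, eIF5B and eIF6. Eif5b, a GTPase of subunit joining, was counted at 279, 290.2 and 261 CPM in EV, 282, 182 and 254 CPM in LAP and 287, 178 and 247 CPM in LIP. LAP 2 and LIP 2 were the low libraries, and LAP against EV and LIP against EV both gave -0.22, with edgeR adjusted p of 0.918 and 0.706. Eif5a2, the less widely expressed eIF5A gene, was at 22.5, 24.8 and 25.02 CPM in EV, 20.01, 20.5 and 26.0 CPM in LAP and 27.1, 22.5 and 39.8 CPM in LIP. Only LIP 3 stood clear of the rest. LIP against LAP gave 0.44 with an SE of 0.247 and an edgeR adjusted p of 0.654.

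Levels of different initiation factors can be compared only with care. The 33 genes with counts and 1 curated RefSeq transcript had a median level per kilobase of 78.8 CPM, and the 21 with 2 or more had one of 10.2 CPM. Over all genes with counts the medians were 1.29 and 1.26 CPM. Factors that every growing cell uses were among the low ones. Eif4g1 had a mean of 1.38 CPM per kilobase with 2 curated transcripts, and Eif5 4.475 with 2, beside 251 for Eif3a with 1. Transcript number was not tested as a cause.

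Genes that work beside the initiation factors gave a similar picture. Of 39 such genes tested, 0 passed the adjusted threshold in LIP against EV, in LAP against EV or in LIP against LAP. At an unadjusted p under 0.05, 2 were higher and 1 lower in LIP against EV (all genes 4.23% and 6.75%), 0 and 0 in LAP against EV (all genes 1.93% and 1.34%), and 2 and 1 in LIP against LAP (all genes 3.30% and 5.98%). In LIP against EV the smallest p of each list belonged to Ddx3y among helicases and recycling factors (0.92, edgeR adjusted p = 0.0925) and to Gspt2, a release factor, among elongation and release factors (0.80, 0.292). It belonged to Ddit3, the stress factor CHOP, among effectors of the eIF2α kinases (-0.40, 0.410) and to Eif4ebp3 among eIF4E-binding proteins and kinases (0.41, 0.578). Mtif2 led mitochondrial initiation (0.20, 0.688) and Gigyf1, a partner of 4EHP, the partners of the cap complexes (0.32, 0.706). With the replicate number as a block, Ddx3y (0.93), Gspt2 (1.22) and Ddit3 (-0.64) were called in LIP against LAP, with edgeR adjusted p of 6.15e-05, 0.000536 and 0.0206. These were 3 of 39, where 6.51% of all genes were called in that fit.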

How the data were processed

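RNA-seq was done on 9 libraries of Cebpb-ko MEFs (TruSeq RNA v2, HiSeq2500, 50-base single reads). The authors extracted reads with bcl2fastq 1.8.3, aligned them with TopHat 1.4.1 to mm10 and counted them per RefSeq gene with HTSeq 0.5.4, and deposited raw counts of 23337 symbols without normalization. The strand setting and the handling of reads with several alignments are not given in the sources used here, so overlapping or near-identical genes are uncertain.

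Each comparison used its 6 libraries, genes with at least 1 count, TMM, and the quasi-likelihood test of edgeR 4.0.16 under R 4.3.3, without covariates, adjusted by Benjamini-Hochberg over all genes. The SE was taken as the log2 fold change over the root of F. CPM per library were scaled over all 9 libraries (TMM factors 0.949 to 1.10). The floor of 3 counts covers counting error only. DESeq2 1.42.0 was an alternative, beside the edgeR exact test, other scalings and filters, all libraries in 1 model, the replicate number as a block, and each library left out. Lengths, positions and shared windows come from GENCODE M21 on GRCm38, which has the mm10 sequence, and promoters from RefSeq on GRCm38.p6. The test was tried on simulated data. Figures were drawn with matplotlib 3.10.9.

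Genes named are the eIF4E and other paralogs, those past the threshold, those with the smallest p or highest level in each role group, and those with 3 counts or fewer in a group. Eif3h, Eif3i, Eif3m, Eif3b, Eif3c and some others were added after their values were seen, to describe LAP 2 and to complete groups. The members, with Eif4e3 singled out among them, and the lists were chosen with earlier results of these data known. The labels number libraries 1 to 3 in each group. Same-numbered libraries deviated together (r of deviations from group means over 11535 genes) at 0.209 to 0.522 in LAP and EV and 0.412 to 0.555 in LIP and LAP, and at -0.120 to 0.287 in LIP and EV, so the numbers were taken to pair the first 2 comparisons. The main fits, the counts of genes without overlap and the permutation test did not use this pairing. In LIP against LAP the block raised the calls over all genes from 190 to 1183.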

Additional observations from a re-analysis of the deposited data

How the results depend on the processing

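Eif4e3 kept its direction in each comparison under all alternatives run. Its call in LIP against EV and in LIP against LAP held under DESeq2, the edgeR exact test, DESeq2 size factors, total counts only, all 9 libraries in 1 model and the replicate block, and was lost with filterByExpr (2.41 and 1.90) and with at least 10 counts in every library (2.41 and 1.90). Members called then numbered 0 in both comparisons. Over the fits that each left out 1 library, its log2 fold change lay between 1.98 and 2.58 in LIP against EV (called in 5 of 6 fits) and between 1.48 and 2.10 in LIP against LAP (4 of 6), with 0 to 1 members called. With the replicate block, members called in LIP against LAP numbered 2, and the calls of members in LIP against EV and LAP against EV were as without it, while Ddx3y, no member, was also called in LIP against EV (0.88, adjusted p = 0.0234). In LIP against EV the numbers were not taken to pair the libraries, but pairing was not excluded. There 2 of 3 numbers correlated best with themselves, and the mean r was 0.133 for the same number and -0.0635 for other numbers. The block left 1 member called and raised the calls over all genes from 72 to 467.

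Among the members named by the rule given above, without those added later, small differences changed sign, the cause of which was not tested. With total counts only, Eif2s2 (0.0108) and Eif4e (0.0049) in LIP against EV and Eif2s3x (-0.0242) in LAP against EV did so. With the replicate block Eif2b3 (-0.0117) in LIP against EV did, with all 9 libraries in 1 model Eif1 (-0.0040) in LIP against LAP, and Eif5b in LIP against LAP with DESeq2 (-0.0011), DESeq2 size factors (-0.0011), at least 10 counts (-0.0045) and 1 model (-0.0042). Members outside that rule changed sign too. In LIP against EV, 3 of 5 eIF1 and eIF1A genes were above 0, but 5 of 5 with total counts only. Of the eIF3 genes 9 of 12 were above 0, but 10 of 12 with DESeq2.

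With each library left out, the members named by that rule whose sign changed in LIP against EV were Eif2b3 (-0.093 to 0.22), Eif2s1 (-0.063 to 0.13), Eif2s2 (-0.10 to 0.041), Eif2s3x (-0.18 to 0.0095), Eif2s3y (-0.70 to 0.059), Eif4a1 (-0.059 to 0.15), Eif4a2 (-0.018 to 0.91), Eif4e (-0.19 to 0.12), Eif4e2 (-0.045 to 0.11), Eif4g3 (-0.055 to 0.38). In LAP against EV they were Eif1 (-0.018 to 0.13), Eif1ad (-0.11 to 0.086), Eif1ax (-0.0011 to 0.53), Eif2b4 (-0.12 to 0.10), Eif2b5 (-0.0072 to 0.12), Eif2c2 (-0.17 to 0.063), Eif2s3x (-0.088 to 0.056), Eif2s3y (-0.076 to 0.60), Eif3a (-0.23 to 0.036), Eif3f (-0.15 to 0.12), Eif4b (-0.14 to 0.094), Eif4e2 (-0.028 to 0.17). In LIP against LAP they were Eif1 (-0.063 to 0.0700), Eif1ax (-0.44 to 0.074), Eif2b3 (-0.25 to 0.061), Eif2c4 (-0.68 to 0.14), Eif2s3x (-0.18 to 0.0205), Eif3e (-0.36 to 0.13), Eif4a1 (-0.20 to 0.022), Eif4a2 (-0.48 to 0.44), Eif4e2 (-0.14 to 0.043), Eif4enif1 (-0.45 to 0.13), Eif4g1 (-0.44 to 0.0071), Eif5b (-0.18 to 0.17).

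Low counts limit Eif4e3, Eif2c4 and Eif4enif1, and differences under 1.5-fold were mostly within the spread of 3 libraries. The fits without 1 library called 22 to 367 genes of all in LIP against EV, against 72, 6 to 62 in LAP against EV, against 11, and 7 to 448 in LIP against LAP, against 190.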
